A study of Mus musculus with 12 samples.

Results

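The oxoglutarate-dependent demethylases and hydroxylases examined here were 32 genes, taken by name, of the 18193 genes measured on the arrays. Each gene was read from the probe set (a group of short probes for 1 transcript) that names only that gene and had the highest mean signal over all arrays. The 32 genes encode histone demethylases, the TET enzymes that oxidize methylcytosine, the FTO and ALKBH demethylases of RNA, DNA and protein, JMJD6, the PLOD lysyl hydroxylases of collagen, and JARID2, which has the fold of the family without its activity. Arrays were made from bone marrow-derived macrophages (BMDMs), cells grown from mouse marrow with M-CSF, in 4 groups of 3 arrays. Stimulated Nos2-/- and stimulated WT cells had been given LPS (100 ng/mL) together with IFNγ (50 ng/mL) over 8 h, and untreated Nos2-/- and untreated WT cells had received neither. Nos2-/- mice (B6.129P2-Nos2tm1Lau/J) lack the inducible NO synthase in all cells, carry a deletion made in cells of another strain and, like the WT (C57BL/6) mice, were bred in 1 facility. The methods give PBS as vehicle for the untreated cells, while the labels describe them as taken ahead of stimulation.

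These enzymes use iron, oxygen and oxoglutarate, a metabolite of the TCA cycle, to hydroxylate a methyl group, which then falls off, or a side chain, and they release succinate. Succinate and fumarate inhibit many of them, and NO can bind their iron, which is why the family is often discussed beside macrophage metabolism. The arrays measure only their mRNA and say nothing of activity or of the marks they remove.

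Values are log2 RMA signals, so a difference of 1 is a doubling. Groups were set against each other in limma, and genes passed the test when p, adjusted by Benjamini-Hochberg over all 18193 genes, was under 0.05. Genes that passed are said to be called. Nos2 itself had 7.74, 7.45 and 7.88 in stimulated Nos2-/- cells, against 9.73, 9.81 and 9.64 in stimulated WT cells. Its untreated values were 5.15, 5.41 and 5.36 in Nos2-/- cells and 5.45, 5.40 and 5.65 in WT cells, and the sources used here do not say whether its probes lie in the deleted part. Array medians ran from 5.14 to 5.21, arrays of a group correlated at 0.996 or above, and the mean of 8 macrophage markers lay between 12.32 and 12.43 on every array. The markers moved in both directions with stimulation under that mean, with 2 called higher and 5 lower in each genotype (Fcgr1 by 1.27 in Nos2-/- and 1.24 in WT cells, Cd68 by -0.91 and -0.87), and 0 of 8 were called between genotypes in either state. Of the 32 genes, 29 had a mean signal at or above the median gene (6.12), and Kdm4d, Tet1 and Plod2 were below it.

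Tet2 was the member that separated the stimulated genotypes most clearly. It encodes a dioxygenase that oxidizes methylcytosine and is known in macrophages as a brake on inflammatory cytokine genes. Its signal was 9.23, 9.33 and 9.32 in stimulated Nos2-/- cells, against 8.58, 8.78 and 8.73 in stimulated WT cells. In untreated cells it was 6.93, 7.13 and 7.08 in Nos2-/- cells and 6.93, 7.09 and 7.11 in WT cells. Each stimulated Nos2-/- array therefore lay above each stimulated WT array, and the untreated genotypes overlapped. The log2 fold change of stimulated Nos2-/- over stimulated WT was 0.60 (SE 0.08), or 1.51-fold, with limma's adjusted p = 6.5e-04. Between untreated genotypes it was 0.00 (95% CI -0.17 to 0.17). With stimulation Tet2 rose by 2.25 (SE 0.08) in Nos2-/- cells and by 1.65 (SE 0.08) in WT cells, and the difference between these responses, 0.60 (SE 0.11), also passed the test (adjusted p = 0.0209). It was the only 1 of 32 members called there, beside 0.978% of all genes (0.302% higher and 0.676% lower). At an unadjusted p under 0.05 there were 5 members, all higher. Of all genes, 868 were higher and 957 lower at that p (10% in either direction). The call of Tet2 for this difference was lost without WT untreated replicate 2 or 3, WT stimulated replicate 1 or Nos2-/- untreated replicate 1. It was also lost in the linear model without limma's moderation. Its adjusted p ran from 0.0242 to 0.0696 over the 12 fits that leave out 1 array. By contrast, the difference between the stimulated genotypes was called in all 23 alternatives tried. A second Tet2 probe set was also higher in stimulated Nos2-/- cells, by 0.67 (SE 0.10, adjusted p = 0.00239 over all probe sets), but its response difference of 0.46 (SE 0.15) was not called (adjusted p = 0.28). Between untreated genotypes that probe set differed by 0.22 (SE 0.10, not called), with means of 6.81 in Nos2-/- and 6.60 in WT cells.

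Kdm5c, an X-linked demethylase that removes methyl groups from lysine K4 of histone H3, was the other member called between stimulated genotypes. Its signal was 8.98, 8.92 and 8.96 in stimulated Nos2-/- cells, against 8.61, 8.75 and 8.69 in stimulated WT cells. Untreated cells had 8.03, 8.02 and 8.07 (Nos2-/-) and 8.05, 8.06 and 8.01 (WT). The stimulated genotypes did not overlap and the untreated genotypes did. The log2 fold change between stimulated genotypes was 0.26 (SE 0.06, adjusted p = 0.0254), well below that of Tet2, and the responses of 0.91 in Nos2-/- and 0.64 in WT cells differed by 0.26 (SE 0.08, adjusted p = 0.22, not called). The call was lost in 8 of 23 alternatives, among them those without stimulated replicate 1 or 3 of either genotype (adjusted p over all fits without 1 array 0.0346 to 0.102). Of its 9 probe sets, 2 were called higher between stimulated genotypes and 0 lower with limma. In WT cells, 1 probe set of Kdm5c was called lower with stimulation (-0.30) while 5 of the others were called higher. The Y-linked relatives Kdm5d and Uty were dim in all groups (group means 3.76 to 3.82 and 3.37 to 3.59) and were not called between genotypes in either state.

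**Figure D1:**
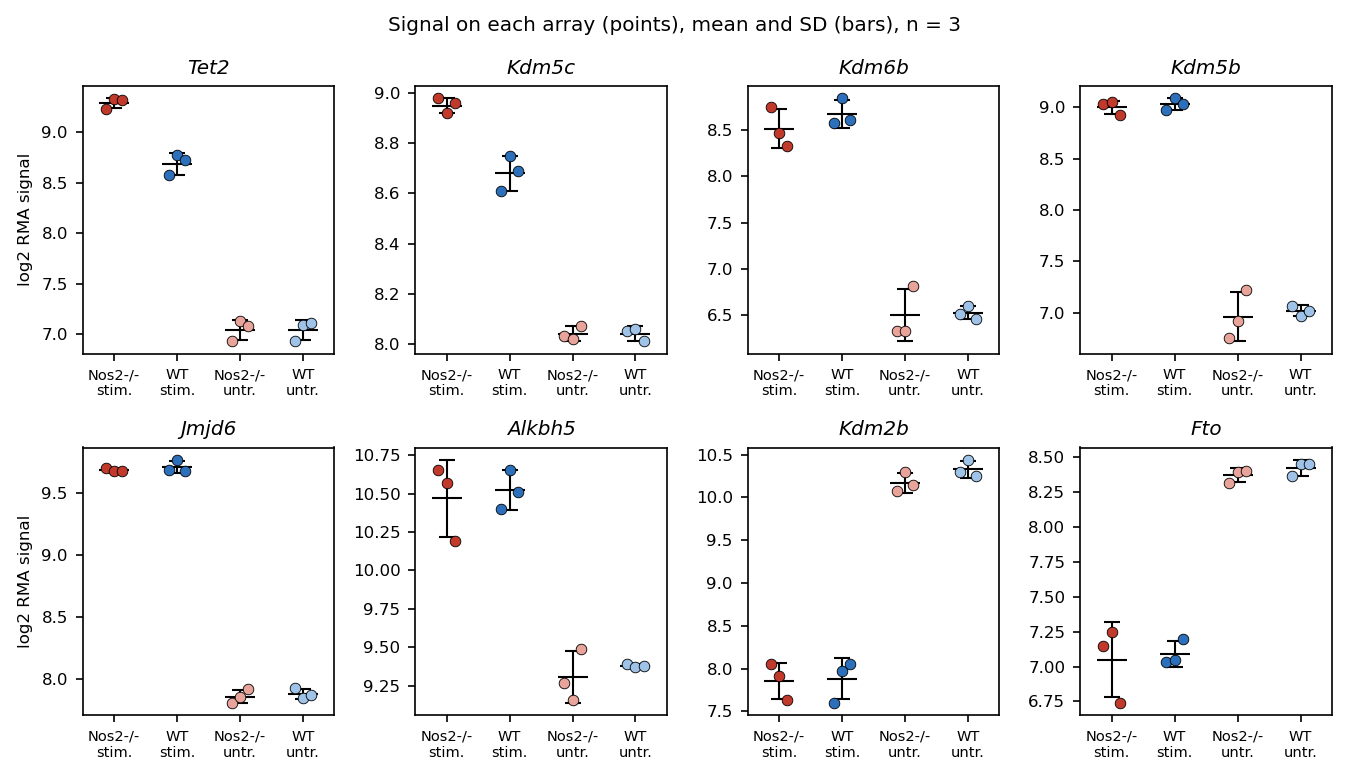
Log2 RMA signal (vertical axes, each on its own scale) of 8 genes in stimulated Nos2-/-, stimulated WT, untreated Nos2-/- and untreated WT BMDMs. Points are arrays and bars are mean and SD (n = 3). Stimulated Nos2-/- arrays lie above stimulated WT arrays for Tet2 (9.23 to 9.33 against 8.58 to 8.78) and Kdm5c, while in the other 6 panels the stimulated genotypes overlap.

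These 2 of 32 genes were 6.25% of the members, beside 2.94% of all genes called in this comparison. Both were higher, as were 1.03% of all genes. Among genes at or above the median signal, the shares were 2 of 29 members and 5.08% of 9097 genes, so the number of calls is close to the background. With limma, 0 of the 32 were called lower, beside 1.91% of all genes. At an unadjusted p under 0.05 there were 6 higher and 1 lower. Of all 18193 genes, 1223 were higher and 1517 lower at that p (15.1% in either direction). A linear model without limma's moderation called 3 members higher and 0 lower. The share of all genes called in that model is not given here, so these counts have no background beside them. The median difference over the members was 0.00, against -0.01 over all genes. In 7 members the stimulated Nos2-/- arrays lay wholly above the stimulated WT arrays (21.9%, beside 8.21% of all genes), and in 2 wholly below (6.25%, beside 8.89%). Apart from Tet2 and Kdm5c, the first set held Kdm2a, Kdm3b, Alkbh1, Alkbh4 and Jarid2 and the second Kdm3a and Alkbh6, none of which was called. The nearest to the threshold was Alkbh4, which demethylates lysine in actin, with 0.27 (95% CI 0.11 to 0.42, adjusted p = 0.0756). For the 30 members not called, the 95% confidence intervals stayed between -0.49 and 0.42, so that differences larger than these bounds fall outside the intervals. All 84 probe sets of the 32 genes gave 5 higher and 0 lower calls, in Tet2, Kdm5c and Jarid2. The calls come from 3 genes, since 23 of the 32 had more than 1 probe set. The share of all probe sets called in this comparison is not given here.

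**Figure D2:**
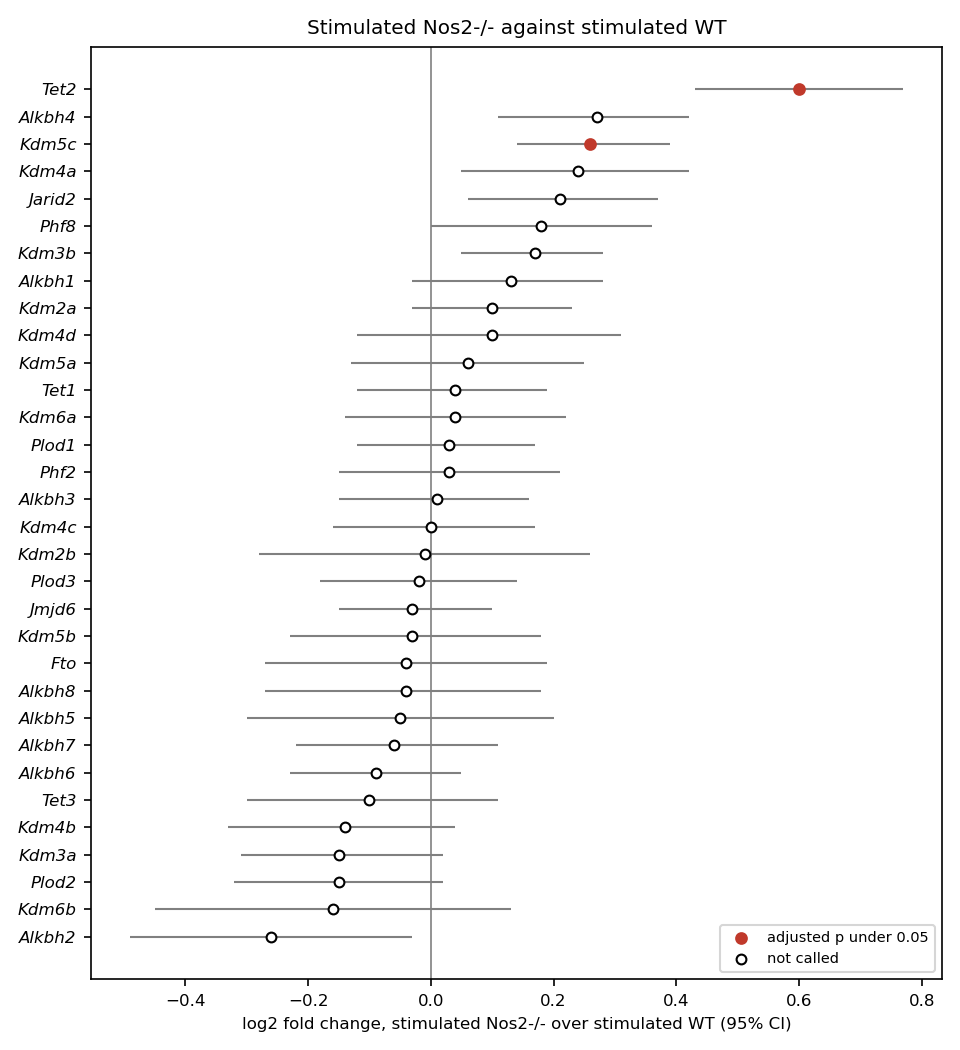
Log2 fold change of stimulated Nos2-/- over stimulated WT BMDMs (horizontal axis) for each of the 32 genes, with 95% confidence intervals. Filled points passed an adjusted p of 0.05, which only Tet2 (0.60) and Kdm5c (0.26) did, and open points did not.

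Between untreated genotypes, 0 of 32 members were called with limma in either direction (0.011% of all genes were, 0.0055% higher and 0.0055% lower), 0 had an unadjusted p under 0.05 (beside 4% of all genes), and the linear model without moderation called 0. The Nos2-/- arrays lay wholly above the WT arrays in 4 members (12.5%, beside 6.24% of all genes) and wholly below in 5 (15.6%, beside 6.4%). The 95% confidence intervals of all 32 lay between -0.43 and 0.36.

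Stimulation itself changed most of these genes. In Nos2-/- cells 25 of 32 changed (78.1%, beside 54.5% of all genes), of which 16 rose (beside 26.3% of all genes) and 9 fell (beside 28.2%), and 7 did not pass the test. In WT cells 27 changed (84.4%, beside 58% of all genes), of which 16 rose (beside 29.6%) and 11 fell (beside 28.4%), and 5 did not pass. Restricted to genes at or above the median signal, the shares came closer, with 82.8% of 29 members beside 78% of genes in Nos2-/- cells and 86.2% beside 78.5% in WT cells. The median absolute change of those 29 was 0.68 beside 0.52 in Nos2-/- cells and 0.71 beside 0.49 in WT cells. In both genotypes, 15 members were called higher and 9 lower, and 0 were called in opposite directions. The 2 comparisons use different arrays, and the shares of all genes called the same or opposite ways in both are not given here. These joint counts are therefore not read as a trait of the members. Another 4 members were called in 1 genotype only, and 4 (Alkbh2, Alkbh3, Kdm4d and Tet3) in neither.

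**Figure D3:**
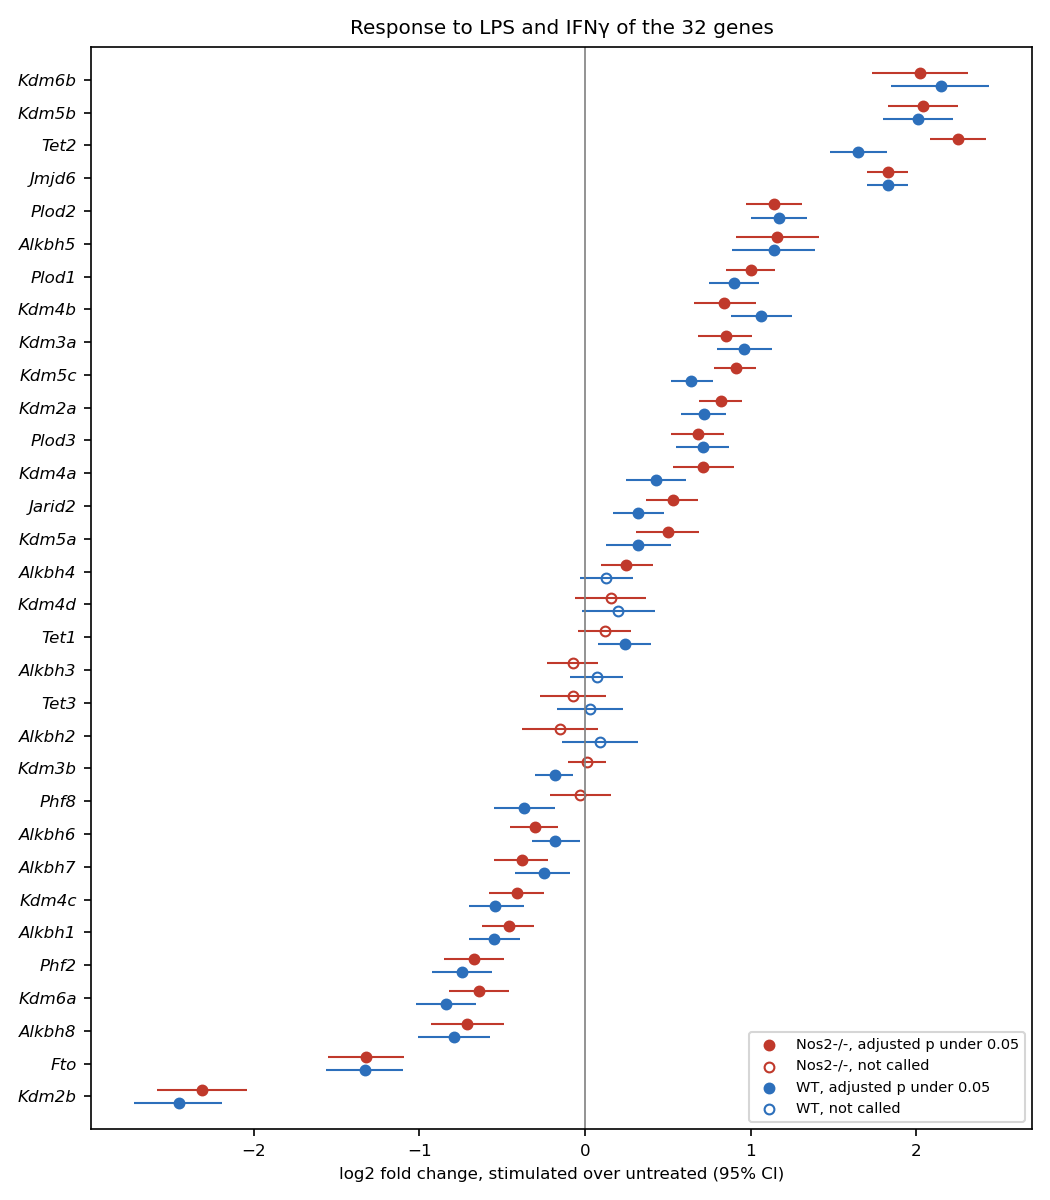
Log2 fold change of stimulated over untreated BMDMs (horizontal axis) for the 32 genes, in Nos2-/- cells (red) and WT cells (blue), with 95% confidence intervals. Filled points passed an adjusted p of 0.05. Kdm6b, Kdm5b, Tet2 and Jmjd6 lie at the high end and Kdm2b and Fto at the low end in both genotypes. The intervals of Tet2 (2.08 to 2.42 in Nos2-/- and 1.48 to 1.82 in WT cells) lie apart, and those of Kdm5c (0.78 to 1.03 and 0.52 to 0.77) barely do. In limma's test of the difference between the responses, Tet2 was called and Kdm5c was not (adjusted p = 0.22).

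The members that responded most are given here with the DNA upstream of their transcription start, since these genes responded to 1 stimulus. The sequences are the 250 bases upstream of the start as RefSeq annotates it on GRCm38.p6, read on the strand of the gene, and 26 of the 32 members had such an entry (35 windows, since some genes have several starts). Both strands were searched for the letters of 7 motifs linked to this stimulus or to oxygen sensing, and a match, printed in capitals, describes letters and not a bound site. The motifs were NF-kB (GGG and TTTCC with any 2 bases between them), ISRE (TTTC and again TTTC with any 2 bases between them), GAS (TTCNNNGAA), AP-1 (TGANTCA), HRE (ACGTG), CRE (TGACGTCA) and E-box (CACGTG), the last of which contains an HRE. Tet2 and Kdm5c come first as the members called between genotypes. They are followed by Kdm5b and Jmjd6, which rose most among the others with an entry, and by Kdm2b, which fell most and is shown at 1 of its listed starts.
Tet2: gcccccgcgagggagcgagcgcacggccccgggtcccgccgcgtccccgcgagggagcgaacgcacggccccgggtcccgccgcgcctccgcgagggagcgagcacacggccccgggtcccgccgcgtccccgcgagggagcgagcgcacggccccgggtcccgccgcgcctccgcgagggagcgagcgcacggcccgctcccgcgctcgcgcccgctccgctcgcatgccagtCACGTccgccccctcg
Kdm5c: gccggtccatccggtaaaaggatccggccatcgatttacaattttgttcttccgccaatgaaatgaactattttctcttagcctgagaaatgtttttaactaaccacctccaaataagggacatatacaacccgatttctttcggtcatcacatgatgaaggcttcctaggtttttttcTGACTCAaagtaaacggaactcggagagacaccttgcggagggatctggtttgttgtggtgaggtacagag
Kdm5b: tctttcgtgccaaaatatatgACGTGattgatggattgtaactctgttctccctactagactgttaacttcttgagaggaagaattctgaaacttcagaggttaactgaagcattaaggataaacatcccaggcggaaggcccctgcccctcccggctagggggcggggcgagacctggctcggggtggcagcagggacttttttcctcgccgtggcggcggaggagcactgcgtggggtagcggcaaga
Jmjd6: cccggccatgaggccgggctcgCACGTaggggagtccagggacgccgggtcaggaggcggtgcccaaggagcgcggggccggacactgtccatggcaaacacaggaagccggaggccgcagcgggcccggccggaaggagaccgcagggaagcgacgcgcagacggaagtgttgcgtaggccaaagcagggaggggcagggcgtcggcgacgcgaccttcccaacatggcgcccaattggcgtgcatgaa
Kdm2b: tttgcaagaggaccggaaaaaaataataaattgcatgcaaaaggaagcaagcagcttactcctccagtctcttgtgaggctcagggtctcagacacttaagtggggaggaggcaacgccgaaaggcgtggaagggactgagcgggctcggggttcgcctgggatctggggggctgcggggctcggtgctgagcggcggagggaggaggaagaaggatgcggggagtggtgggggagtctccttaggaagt
In this order they lie at chr3:133544391-133544640 (minus strand), chrX:152232977-152233226 (plus strand), chr1:134559928-134560177 (plus strand), chr11:116843450-116843699 (minus strand) and chr5:122988508-122988757 (minus strand). The Tet2, Kdm5b and Jmjd6 windows each held 1 HRE match, which reads CACGT on the printed strand of Tet2 and Jmjd6, the Kdm5c window held 1 AP-1 match, and the Kdm2b window held none of the 7. HRE letters were found for 10 of 26 members, beside 16.6% of all 32851 windows, where a member counted if any of its windows matched. The NF-kB letters were found for 0 of 26, beside 1.41% of all windows, ISRE letters for 1 (Plod3, beside 2.98%), GAS letters for 2 (Fto and Kdm3a, beside 7.02%) and CRE letters for 1 (Phf8, beside 1.55%). AP-1 letters were found for 3 (Kdm3a, Kdm4a and Kdm5c, beside 6.75%), all of which rose in both genotypes, and E-box letters for 3 (Alkbh7, Kdm4c and Kdm6a, beside 6.02%), all of which fell in both. Of the 26, 10 rose and 9 fell in both genotypes. HRE letters were found for 5 of those that rose and for 3 of those that fell, the same 3 that held E-box letters. GAS letters were found for 1 that rose and 1 that fell. With so few genes, a link of motif and direction was not tested. The member windows were rich in CpG, with a median of 17.0 CpG per window beside 6.0 over all windows. The Tet2 window held 51, and the part of CpG content in the HRE count, whose letters contain a CpG, was not tested.

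Among the demethylases of H3K27, a mark of silenced genes, the 2 members went opposite ways. Kdm6b, the demethylase long known to be induced by LPS in macrophages, had 8.74, 8.47 and 8.32 in stimulated Nos2-/- cells, against 6.33, 6.33 and 6.82 in untreated Nos2-/- cells. It had 8.57, 8.84 and 8.60 in stimulated WT cells, against 6.52, 6.60 and 6.46 in untreated WT cells. No stimulated array overlapped an untreated one, while the genotypes overlapped within each state. The log2 fold change was 2.02 (SE 0.13, adjusted p = 1.1e-08) in Nos2-/- and 2.15 (SE 0.13, adjusted p = 6.6e-09) in WT cells, and these differed by -0.13 (95% CI -0.54 to 0.28, not called). Its probe sets disagreed in size, with responses from 0.77 to 3.15 in Nos2-/- and from 0.84 to 3.24 in WT cells, all higher, and the one used has a name ending that marks probes shared with other transcripts. Kdm6a, its X-linked relative, fell in both, with log2 fold changes of -0.64 in Nos2-/- and -0.84 in WT cells.

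Of the demethylases of H3K4, a mark of active promoters, the members of the KDM5 family on the list (Kdm5a, Kdm5b and Kdm5c) rose in both genotypes, while the flavin-dependent Kdm1a and Kdm1b, which are not members, fell. Kdm5b had 9.03, 9.05 and 8.93 in stimulated Nos2-/- cells, against 6.75, 6.92 and 7.22 in untreated Nos2-/- cells. In WT cells it had 8.97, 9.09 and 9.03 after stimulation and 7.06, 6.97 and 7.02 without it. The states were far apart and the genotypes overlapped in both. Its log2 fold changes were 2.04 (SE 0.10, adjusted p = 3.0e-10) in Nos2-/- and 2.01 (SE 0.10, adjusted p = 4.0e-10) in WT cells, with a difference of 0.03 (95% CI -0.27 to 0.32). Kdm5a rose less, by 0.50 in Nos2-/- and 0.32 in WT cells, and in WT cells its probe sets were called in both directions.

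Of the members that act on H3K36 or ubiquitin-linked silencing, Kdm2b fell most in both genotypes. Kdm2b brings a variant Polycomb complex to CpG islands. It had 8.05, 7.91 and 7.63 in stimulated Nos2-/- cells, against 10.07, 10.30 and 10.14 in untreated Nos2-/- cells. It had 7.60, 7.97 and 8.05 in stimulated WT cells, against 10.30, 10.44 and 10.25 in untreated WT cells. All stimulated arrays were below all untreated ones, and the genotypes overlapped. Its log2 fold change was -2.31 (SE 0.12, adjusted p = 1.2e-09) in Nos2-/- and -2.45 (SE 0.12, adjusted p = 7.0e-10) in WT cells, and these differed by 0.15 (95% CI -0.23 to 0.52, not called). A second probe set gave -2.39 in Nos2-/- and -2.20 in WT cells. In absolute size the response of Kdm2b was the largest of the 32 genes in the probe sets used, but over all probe sets it was not, since 1 of Kdm6b rose by 3.15 in Nos2-/- and by 3.24 in WT cells. Its paralogue Kdm2a, an H3K36 demethylase, rose instead, by 0.82 in Nos2-/- and by 0.72 in WT cells.

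The demethylases of H3K9 were mixed. Kdm3a, a target of hypoxia signaling, rose by 0.85 in Nos2-/- and by 0.96 in WT cells. Kdm4b, of the subfamily that acts on trimethylated H3K9, rose by 0.84 and 1.06 in the same order, and Kdm4a rose by 0.71 and 0.43. Kdm4c fell in both (-0.41 in Nos2-/- and -0.54 in WT cells), as did Phf2, a plant homeodomain demethylase (-0.67 in Nos2-/- and -0.74 in WT cells). Kdm4d had values between 4.20 and 4.72 on all arrays and was not called in either genotype. Kdm3b was not called in Nos2-/- cells (0.01) and was called lower in WT cells (-0.18, adjusted p = 0.0106, lost when arrays were centred on their median or quantile normalized), and Phf8, an X-linked demethylase, went likewise (-0.03 in Nos2-/- and -0.37 in WT cells, lost with the mean of all probe sets). The differences between their responses, 0.20 for Kdm3b (adjusted p = 0.387) and 0.34 for Phf8 (adjusted p = 0.308), were not called. Jarid2, which works with the H3K27 methyltransferase complex PRC2, rose by 0.53 in Nos2-/- and by 0.32 in WT cells, and 1 of its other probe sets was called between the stimulated genotypes, higher in Nos2-/- cells by 0.30.

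Of the 3 TET genes, only Tet2 was called higher in both genotypes. Tet3 was near its untreated level in both, with -0.07 (95% CI -0.27 to 0.13) in Nos2-/- and 0.03 (95% CI -0.17 to 0.23) in WT cells. Tet1 was dim, with values from 4.49 to 4.93, and was not called in Nos2-/- cells (0.12) but was called higher in WT cells (0.24, adjusted p = 0.0129), with no called difference between the responses (-0.12, adjusted p = 0.762). The WT call of Tet1 was lost in 5 of 22 alternatives, among them those without WT untreated replicate 3 (0.20, adjusted p = 0.0602) or WT stimulated replicate 1 (0.20, adjusted p = 0.0563), with quantile normalization (0.12) and with the mean of all its probe sets (0.03).

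The erasers of N6-methyladenosine, a methyl mark of mRNA, went in opposite directions. Fto, which also demethylates other adenosines, had 7.15, 7.25 and 6.74 in stimulated Nos2-/- cells, against 8.31, 8.39 and 8.40 in untreated Nos2-/- cells. In WT cells it had 7.03, 7.05 and 7.20 after stimulation and 8.36, 8.45 and 8.45 without it. The states did not overlap, and the log2 fold change was -1.32 (SE 0.11, adjusted p = 8.9e-08) in Nos2-/- and -1.33 (SE 0.11, adjusted p = 9.0e-08) in WT cells. A second, dimmer probe set of Fto gave -0.13 in Nos2-/- and -0.28 in WT cells, of which only the WT value was called. Alkbh5 had 10.65, 10.57 and 10.19 in stimulated Nos2-/- cells, against 9.27, 9.16 and 9.49 in untreated Nos2-/- cells. In WT cells it had 10.40, 10.65 and 10.51 after stimulation and 9.39, 9.37 and 9.38 without it. It rose by 1.16 (SE 0.12) in Nos2-/- and by 1.14 (SE 0.12) in WT cells. The genotypes overlapped for both genes, and the responses differed by 0.01 for Fto (95% CI -0.32 to 0.34) and by 0.02 for Alkbh5 (95% CI -0.33 to 0.38).

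The other ALKBH genes changed less. Alkbh1, active on tRNA, fell in both (-0.46 in Nos2-/- and -0.55 in WT cells), as did Alkbh8, which modifies the wobble base of tRNA (-0.71 in Nos2-/- and -0.79 in WT cells). Alkbh6 (-0.30 in Nos2-/- and -0.18 in WT cells) and the mitochondrial Alkbh7 (-0.38 and -0.25) fell less. The WT calls of both were lost, at 0.01 and 0.02, when the gene table was quantile normalized. That of Alkbh6 was lost in 9 of 23 alternatives, among them those without WT untreated replicate 2 or 3 or WT stimulated replicate 1 or 2 (adjusted p over all fits without 1 array 0.0188 to 0.133), and that of Alkbh7 in 4 of 23, among them without WT stimulated replicate 1 (adjusted p = 0.0501). The DNA repair enzymes Alkbh2 (-0.15 in Nos2-/- and 0.09 in WT cells) and Alkbh3 (-0.07 and 0.07) were not called. Alkbh4 was called higher in Nos2-/- cells (0.25, adjusted p = 0.00913) and not in WT cells (0.13), and the difference between the responses, 0.13, was not called (adjusted p = 0.739). The probe set used for Alkbh4 has a name ending that marks probes shared with other transcripts, the call was lost without such probe sets (0.14, adjusted p = 0.176), and the other 2 probe sets of the gene, at 0.20 and 0.14 in Nos2-/- cells, were not called.

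Jmjd6, which hydroxylates lysines of splicing factors, rose almost by the same amount in both genotypes. It had 9.70, 9.68 and 9.68 in stimulated Nos2-/- cells, against 7.81, 7.86 and 7.92 in untreated Nos2-/- cells. It had 9.69, 9.77 and 9.68 in stimulated WT cells, against 7.93, 7.85 and 7.87 in untreated WT cells. The states were apart by more than 1 log2 unit on every array while the genotypes overlapped. The log2 fold change was 1.83 (SE 0.06) in each genotype (adjusted p = 5.6e-12 in Nos2-/- and 6.2e-12 in WT cells), and the 95% confidence interval of the difference was -0.18 to 0.17. Kdm6b, Alkbh5 and Jmjd6 lie on the same chromosome as Nos2, 259, 368 and 653 protein-coding genes away from it, and differed between stimulated genotypes by -0.16, -0.05 and -0.03, none of them called.

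The 3 lysyl hydroxylases, which prepare collagen for crosslinking, rose in both genotypes. Plod2, whose product acts on the ends of collagen chains, rose by 1.14 (adjusted p = 1.6e-08) in Nos2-/- and by 1.17 (adjusted p = 1.3e-08) in WT cells and was dim when untreated. Plod1 rose by 1.00 and 0.90 in these genotypes and Plod3 by 0.68 and 0.71. The summed level of 8 fibroblast and stroma markers, given as their mean, stayed far below the median gene but was higher after stimulation. It ran from 4.47 to 4.53 in stimulated and 4.20 to 4.27 in untreated Nos2-/- cells, and from 4.47 to 4.51 in stimulated and 4.18 to 4.20 in untreated WT cells. With stimulation 4 of 8 were called higher in Nos2-/- (50%, beside 26.3% of all genes) and 5 of 8 in WT cells (62.5%, beside 29.6%). This rise was not particular to stroma markers. The mean of 4 T and NK cell markers went from 4.57 to 4.74 untreated to 5.07 to 5.29 stimulated in Nos2-/- cells. In WT cells it went from 4.62 to 4.70 to 4.96 to 5.09. The mean of 2 erythroid markers was also higher in both genotypes, with 1 called in Nos2-/- and 0 in WT cells. Means of 5 neutrophil markers overlapped between states, yet 2 of 5 were called higher in each genotype. That is 40%, beside 26.3% of all genes in Nos2-/- and 29.6% in WT cells. The mean of 3 B cell markers was higher in WT cells (1 called) and overlapped in Nos2-/- cells (0 called). The part of fibroblast and stroma cells in the PLOD result was not tested, and in such bulk RNA a change in the share of cells of a type and a change in RNA per cell cannot be told apart. Of 7 measured collagen crosslinking partners, 1 rose and 2 fell in Nos2-/- cells (42.9% called, beside 54.5% of all genes) and 3 rose and 2 fell in WT cells (71.4%, beside 58%). Among genes at or above the median signal, the shares called were 78% in Nos2-/- and 78.5% in WT cells.

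Other genes around these enzymes give the setting. Of 30 other oxoglutarate-dependent dioxygenases measured, 13 rose and 8 fell with stimulation in Nos2-/- cells (70% called, beside 54.5% of all genes). In WT cells 10 rose and 8 fell (60%, beside 58% of all genes, close to the background). Among genes at or above the median signal, 78% were called in Nos2-/- and 78.5% in WT cells. Between stimulated genotypes, 1 was higher and 2 were lower in Nos2-/- cells (10% called). The shares there were 2.94% of all genes and 5.08% of genes at or above the median signal. Egln3, a prolyl hydroxylase of HIF, averaged 9.23 in stimulated Nos2-/- and 10.30 in stimulated WT cells, a log2 fold change of -1.07 (SE 0.15, adjusted p = 9.0e-04). P4ha2, a collagen prolyl hydroxylase, was lower (-0.70, adjusted p = 0.00462), and Riox2, a ribosomal histidine hydroxylase, was higher (0.27, adjusted p = 0.0422). Egln3 was also the only one of the 30 whose responses differed by the test (-1.22, adjusted p = 0.0113), opposite in sign to Tet2.

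**Figure D4:**
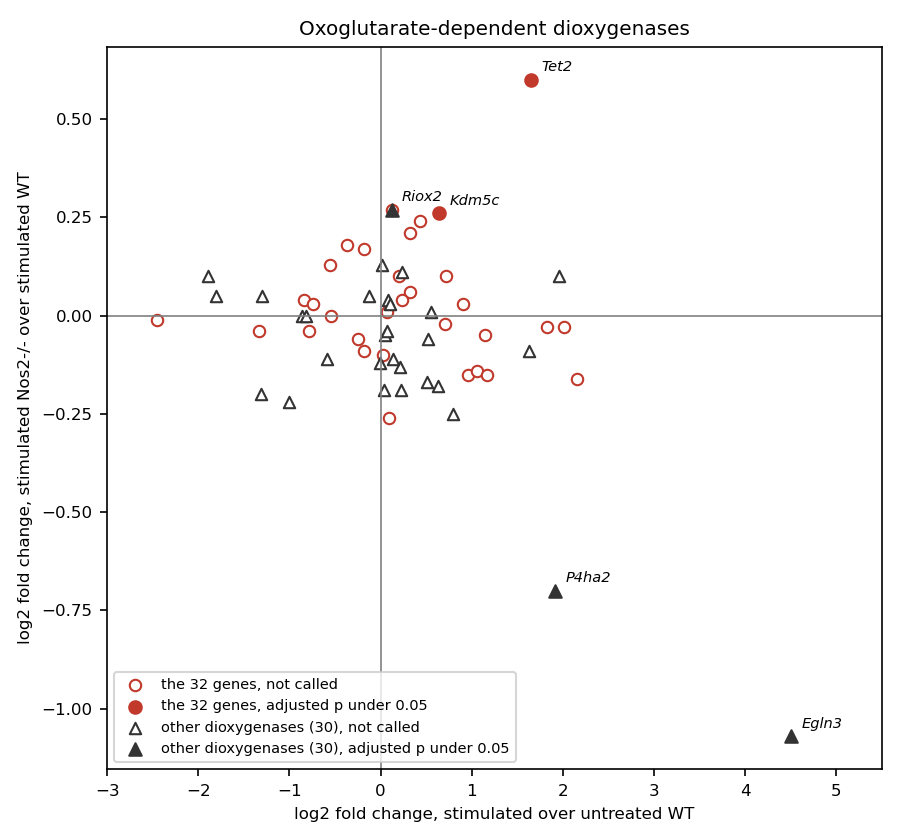
Log2 fold change of stimulated Nos2-/- over stimulated WT BMDMs (vertical axis) against that of stimulated over untreated WT BMDMs (horizontal axis), for the 32 genes (red circles) and 30 other oxoglutarate-dependent dioxygenases (dark triangles). Both axes use the stimulated WT arrays. Filled symbols passed an adjusted p of 0.05 between stimulated genotypes, with Tet2 (0.60) highest and Egln3 (-1.07) lowest.

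Of 22 enzymes that make or use oxoglutarate, succinate and fumarate, 2 rose (beside 26.3% of all genes) and 18 fell (beside 28.2%) with stimulation in Nos2-/- cells, and 2 rose (beside 29.6%) and 15 fell (beside 28.4%) in WT cells. In either direction, 90.9% were called in Nos2-/- and 77.3% in WT cells, beside 78% and 78.5% of genes at or above the median signal. Between stimulated genotypes 3 of the 22 were called, all lower (13.6%, beside 1.91% of all genes). Among genes at or above the median signal, 5.08% were called there in either direction. Idh1, the cytosolic isocitrate dehydrogenase, averaged 9.21 in stimulated Nos2-/- and 9.86 in stimulated WT cells (log2 fold change -0.65, adjusted p = 0.00462). The aminotransferases Got1 (-0.60, adjusted p = 8.0e-04) and Gpt2 (-0.31, adjusted p = 0.0104) were the others. Of 28 writers of methyl marks, 8 rose and 13 fell in Nos2-/- cells (75% called, beside 54.5% of all genes and 78% of genes at or above the median signal), and 7 rose and 11 fell in WT cells (64.3%, beside 58% and 78.5%). Ezh2, the H3K27 methyltransferase opposed by Kdm6b and Kdm6a, fell in both, with log2 fold changes of -2.07 in Nos2-/- and -2.03 in WT cells. Dnmt3a, a DNA methyltransferase, fell too (-1.32 in Nos2-/- and -1.23 in WT cells). Kmt2a, an H3K4 methyltransferase, was the only writer called between stimulated genotypes (0.39, adjusted p = 0.0461, higher in Nos2-/-). The flavin-dependent demethylases Kdm1a and Kdm1b, which need no oxoglutarate, both fell in both genotypes, Kdm1a by little (-0.22 in Nos2-/- and -0.21 in WT cells) and Kdm1b by more (-1.06 in Nos2-/- and -1.39 in WT cells).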

How the data were processed

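The authors hybridized RNA of 12 BMDM samples to Affymetrix Mouse Genome arrays and deposited log2 values that they made with RMA (background correction, quantile normalization and probe summary) in Partek, whose version is not given in the sources used here. With arrays there are no counts, and the precision is limited by how many arrays there are. Of 45101 probe sets, 64 were controls, 34945 named exactly 1 gene, 932 named several and 9160 none. Gene names came from the platform annotation, and each gene was read from its brightest single-gene probe set by the mean of the 12 arrays. The tests were two-sided and came from limma 3.58.1, run under R 4.3.3, where lmFit and eBayes fitted 4 group means, with Benjamini-Hochberg adjustment over 18193 genes and no minimum fold. Intervals are 95% confidence intervals. The replicates are described as biological, without saying which mice they came from. An analysis of variance is what the methods name, with 1.5-fold and a false discovery rate under 0.5, which was an alternative, since such a rate admits many false calls. Other alternatives were another normalization, another choice of probe set, dimmer genes left out, a replicate block and each array left out, and counting calls over all probe sets was added after the data were seen. The fit was tested on simulated data, drawn for each gene independently from a normal distribution around its mean, with limma's moderated spread. The simulation held no array or batch effect and few changed genes, so its rates need not hold for these arrays. Between stimulated genotypes it recovered 88 of 100 genes given a log2 change of 0.5 and 100 of 100 given a change of 1, and called 13 of 17993 left unchanged. For the difference between responses it recovered 52 and 98 of 100 and called 9 unchanged genes. The members and lists were chosen with earlier results of these data known. Array values are given for members called between genotypes and for the 5 called members that changed most, whose groups do not overlap. The other members are given by their changes, with up to 4 called genes of each other list, and the array values of Fto and Alkbh5 were added after they were seen. Python 3.11.15 with pandas 2.3.3 and matplotlib 3.10.9 made the tables and figures. Some genes of the other lists are not analysed here.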

Additional observations from a re-analysis of the deposited data

Results flagged for a closer look

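Tet2 was the only member whose response to stimulation differed between the genotypes by a test of the difference itself. The response in Nos2-/- cells exceeded that in WT cells by 0.60 on the log2 scale (SE 0.11, limma's adjusted p = 0.0209), with the 3 stimulated Nos2-/- arrays at 9.23 to 9.33 and the 3 stimulated WT arrays at 8.58 to 8.78. That difference was called in 17 of 22 alternatives. In the second Tet2 probe set it was 0.46 and was not called (limma's adjusted p = 0.28 over all probe sets).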

How the results depend on the processing

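Between stimulated genotypes, the count of 2 members called became 1 when only the arrays compared were fitted, with a replicate block and at the thresholds of the methods, and 4 without genes below the median signal (Kdm3b and Alkbh4 added). Leaving out 1 array at a time gave 1 to 2. The call lost was that of Kdm5c each time, and 3 were called without moderation. With the mean of all probe sets Jarid2 took the place of Kdm5c. For the difference between the responses, leaving out 1 array gave 0 to 1, and without moderation the 1 gene called was Kdm3b in place of Tet2. In WT cells, the 27 members that responded became 17 (12 higher and 5 lower) at the thresholds of the methods, and leaving out 1 array gave 25 to 26 in Nos2-/- and 24 to 28 in WT cells. The shares of all genes called in these alternatives are not given here, so these counts describe the members only. Quantile normalization turned the WT responses of Alkbh6 (0.01) and Alkbh7 (0.02), neither of them called then, and the cause was not tested. Centring arrays on their median moved the median response of all genes to 0.17 in Nos2-/- and 0.18 in WT cells, against 0.05 and 0.07 as deposited, and the higher share of all calls to 64.9% in Nos2-/- and 64.8% in WT cells, against 48.3% and 51.1%. The members then had 18 higher and 9 lower in Nos2-/- and 18 higher and 8 lower in WT cells, and the WT falls of Kdm3b, Alkbh6 and Alkbh7 were no longer called. Of the single gene values under alternatives, 3567 kept direction and side of the threshold, 50 lost it, 14 gained it and 2 reversed. The labels do not say whether the replicate numbers pair the samples, and the main fit had no block. Same-numbered arrays of different groups had correlations of deviations from -0.26 to 0.21, with 2 of 18 over 0.1. Arrays with different numbers had -0.17 to 0.27, and 7 of 12 arrays correlated best with their own number. These values do not settle whether same-numbered samples were prepared together. The block changed 1 call, that of Kdm5c between stimulated genotypes (adjusted p = 0.0505). The fit of only the arrays compared has no value for the difference between responses, which uses all 12, and Kdm4d, Tet1 and Plod2 have none without dim genes. Small changes of dim genes are limited by signal over background.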
